A study of Triticum aestivum with 18 samples.

Results

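Cellulose and hemicellulose synthesis genes were followed in wheat embryo and endosperm at 16 h of imbibition. The members are the probe sets that the study's annotation places in the MapMan bins for cellulose synthesis and hemicellulose synthesis, MapMan being a scheme that sorts plant genes by function. There were 70 such probe sets, of 65 accessions, among 61179 wheat probe sets on the array, and the choice used annotation alone, not signal. Seeds of 1 Chinese bread wheat cultivar were imbibed in pure water (CK), in 100 mg/L ABA (abscisic acid, the hormone that holds back germination) or in 100 μmol H2O2. The embryo and the endosperm were dissected by hand once the radicle had just emerged. This gave 6 groups of 3 Affymetrix Wheat Genome Arrays, CK_embryo, ABA_embryo, H2O2_embryo, CK_endosperm, ABA_endosperm and H2O2_endosperm, described by the study as biological replicates. The 3 CK arrays of each tissue are the controls.

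Cellulose is made at the plasma membrane by a complex of CESA proteins. In Arabidopsis, CESA1, CESA2 and CESA3 serve the primary wall of growing cells, whereas CESA4, CESA7 and CESA8 serve the secondary wall laid down after growth. The cellulose synthase-like (CSL) families make hemicellulose backbones in the Golgi, CSLA the mannans and CSLC the glucan backbone of xyloglucan, while CSLD is best known from tip-growing cells. Helpers include COBRA, an anchored wall protein that guides cellulose deposition, KORRIGAN (KOR), a membrane endo-glucanase, and FT1 and MUR3, which add fucose and galactose to xyloglucan side chains. Elongation of the embryonic axis needs new wall, and mobilisation of the grain's reserves takes the endosperm walls apart.

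The names used here are those of the best match in another species, mostly Arabidopsis, and the strength of the match differed widely. The annotation calls 2 members nearly identical to their match, 9 highly similar, 19 moderately similar, 32 weakly similar and 7 very weakly similar, and 1 has no match. By match the members fell into 12 primary-wall CESA probe sets, 9 secondary-wall CESA, 6 CSLA, 1 CSLB, 4 CSLC, 5 CSLD, 3 CSLE, 12 of the COBRA family, 6 endo-glucanases, 8 fucosyltransferases and 4 others. Of the 8 fucosyltransferases, 2 match FUT11, which acts on N-glycans rather than on wall polymers. A name ending in x_at (6 members) or s_at (2 members) marks a probe set whose probes can bind more than 1 transcript, and homoeologous copies of hexaploid wheat cannot be separated. Accession BJ260861, a CESA1 match highly similar to its counterpart, has an ordinary probe set and an x_at probe set, and CA607764, a CESA3 match, is an x_at probe set of the same transcript cluster. Over the 18 arrays the log2 signals of these 3 probe sets correlated pairwise at r = 0.97 to 0.982, so they may report overlapping transcripts. The counts below are of probe sets and include each of these 3, so they are not counts of independent genes.

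Array quality was even except for 1 array. The median signal of the wheat probe sets lay between 59.0 and 81.0 on 17 arrays and was 137.9 on H2O2_embryo replicate 1, where 6.79% of probe sets lay below a signal of 10 against 17.5% to 20.8% elsewhere. On that array 45 of 65 tested members read above both other H2O2_embryo replicates and 11 read below both. The summed signal of the starchy endosperm markers (3 probe sets for storage and grain-softness proteins) was 875.8 there, 99.4 to 170.7 on the other 8 embryo arrays and 496.0 to 1643 on the endosperm arrays. That high sum rested mostly on 1 of the 3 probe sets. Their H2O2_embryo means were 334.7, 6.03 and 26.1, against 191.7, 133.5 and 263.4 in CK_endosperm. The 7 embryo marker probe sets, of which the Em proteins are ABA-induced, summed to 288807 to 314375 in ABA_embryo and 143632 to 161789 in ABA_endosperm. All 7 were called higher with ABA in both tissues. They summed to 34447 to 37861 in CK_embryo, 36024 to 38178 in CK_endosperm, 25143 to 36133 in H2O2_embryo and 23632 to 24994 in H2O2_endosperm. These markers did not separate the tissues in CK, where 1 of the 7 was called higher in embryo (median log2 difference −0.05). In the tables of names used, 0 probe sets carried an alpha-amylase name, so aleurone was not checked. Counts are given with all 18 arrays, and the main ones also without H2O2_embryo replicate 1.

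Signals are those of Microarray Suite (MAS5), which reduces the probes of a set to 1 value and scales each array to a common mean, so a level is relative to the rest of the RNA. Tests were made with limma on log2 signals, in 1 fit of all arrays, with p-values adjusted by the Benjamini-Hochberg method over the 57992 probe sets with a signal of 20 or more on 3 arrays. A member was called changed at an adjusted p under 0.05. Counts at an unadjusted p under 0.05 were made for the members and lists only, so they have no background. Of the 70 members 65 passed that filter. The 5 that did not, CA500074 (CSLA9), CA731273 (CSLD3), the x_at probe set of CA624007 (KOR1), CA618745 (KOR3) and CA687551 (FT1), had mean signals of 5.01 to 10.98. Of the 65, 36 had a mean below 100 over the 18 arrays, 14 lay between 100 and 1000, and 15 reached 1000 or more. All 9 secondary-wall CESA matches had means under 200 (9.77 to 184.0), as did all 6 endo-glucanases (9.04 to 75.8), whereas 6 of the 12 primary-wall CESA matches exceeded 1000. Signals of different probe sets depend on their probes, so these values say how well a member could be measured and not which transcript was more abundant.

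ABA lowered 5 of 12 primary-wall CESA matches in embryo and 4 of 12 in endosperm, and raised none. Each list includes both probe sets of BJ260861 and that of CA607764, which may report overlapping transcripts. Without limma's variance trend the embryo calls of CK197498, AB158407, CA607764 and the x_at probe set of BJ260861 were lost. So was the endosperm call of AB158407. In embryo 9 of 65 tested members fell and 0 rose, with 16 members at an unadjusted p under 0.05, and in endosperm 9 fell and 1 rose. The background was 5.74% of all probe sets called in embryo (3.08% lower, 2.66% higher) and 6.87% in endosperm (3.6% lower, 3.26% higher). Without H2O2_embryo replicate 1 the counts were 12 lower and 1 higher in embryo, at a background of 12%, and 15 lower and 2 higher in endosperm, at a background of 15.6%. Of the primary-wall CESA matches 6 and 5 were then lower. Of the members called lower, 6 were the same in both tissues, which is 6 of 9 in each list, and these 6 probe sets are 5 accessions: BJ260861, CA607764, AB158407, CD937007 and CD452591. This overlap was not counted over all probe sets, so it has no background and does not show a trait particular to the members. The calls lay among the brighter members. In embryo 7 of the 15 members at 1000 or more were called lower against 8.79% of all probe sets as bright, and in endosperm 8 of 15 against 9.86%. Of the 36 members under 100, 0 were called in either tissue, beside 0.403% of all probe sets as dim in embryo and 1.01% in endosperm. The median log2 difference of the 65 members was −0.24 in embryo and −0.41 in endosperm, beside −0.05 and −0.10 over all probe sets tested.

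AB158407, nearly identical to a CESA3, read 6200, 6399 and 6860 in CK_embryo, 4537, 4693 and 4520 in ABA_embryo, 3865, 3679 and 3771 in CK_endosperm and 2791, 2908 and 2816 in ABA_endosperm. All ABA arrays lay below all CK arrays of their tissue. The log2 difference was −0.50 ± 0.10 (SE) in embryo (limma, adjusted p = 0.0025) and −0.41 ± 0.10 in endosperm (adjusted p = 0.014), that is 0.707 and 0.752 times the CK level. The endosperm call was lost without CK_endosperm replicate 1 or ABA_endosperm replicate 3, with adjusted p up to 0.0571. Without limma's variance trend both calls were lost (adjusted p = 0.053 and 0.111).

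BJ260861, the CESA1 match, read 3500, 3538 and 3695 in CK_embryo and 2457, 2275 and 2377 in ABA_embryo on its ordinary probe set. In endosperm it read 2727, 2875 and 2698 in CK and 1321, 1573 and 1618 with ABA. The groups did not overlap in either tissue. It fell by 0.59 ± 0.11 on the log2 scale in embryo (adjusted p = 0.00087) and by 0.88 ± 0.11 in endosperm (adjusted p = 1.1e-05), and both calls held without each array in turn. The x_at probe set of BJ260861 read 4236, 4249 and 4380 in CK_embryo, 3144, 2996 and 3023 in ABA_embryo, 3444, 3187 and 3039 in CK_endosperm and 1873, 1863 and 1714 in ABA_endosperm, and fell by 0.49 and 0.83. CA607764, of the same cluster, read 3813, 4160 and 4297 in CK_embryo, 3002, 3091 and 2856 in ABA_embryo, 3134, 3358 and 3272 in CK_endosperm and 1832, 1811 and 1984 in ABA_endosperm, and fell by 0.45 and 0.80. CK and ABA arrays did not overlap on either probe set. Without CK_embryo replicate 3 the embryo calls of these 2 x_at probe sets were lost (adjusted p = 0.0513 and 0.0507). Both were also lost without limma's variance trend (adjusted p = 0.0981 and 0.087).

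A second CESA1 match, CK197498, moved in embryo. Its signals were 3449, 3551 and 3645 in CK_embryo and 2642, 2292 and 2165 in ABA_embryo, with no overlap, and 2306, 2197 and 1944 in CK_endosperm and 1975, 2022 and 2243 in ABA_endosperm, where the groups overlapped. The log2 difference was −0.59 ± 0.14 in embryo (adjusted p = 0.01) and −0.05 ± 0.14 in endosperm (adjusted p = 0.92). The difference between these effects did not pass the test with all arrays (−0.54 ± 0.20, adjusted p = 0.20) and passed it without H2O2_embryo replicate 1 (adjusted p = 0.0038). The embryo call itself was lost without CK_embryo replicate 3 or ABA_embryo replicate 3, with adjusted p up to 0.0676, and with 75th percentile scaling (adjusted p = 0.0627). Without limma's variance trend that call was lost too (adjusted p = 0.0863). With H2O2 it read 2547, 3745 and 3770 in embryo and 1985, 2209 and 2132 in endosperm, where neither difference from CK passed (adjusted p = 0.78 and 0.96).

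BE431148, nearly identical to a CESA2, shows how far 1 array weighs on the shared estimate of spread. It read 11302, 11565 and 11886 in CK_embryo and 9658, 10186 and 9305 in ABA_embryo. In endosperm it read 7728, 7247 and 7324 in CK and 5290, 5564 and 5548 with ABA. The ABA arrays lay below the CK arrays in both tissues, yet the log2 differences of −0.25 ± 0.19 and −0.44 ± 0.19 did not pass (adjusted p = 0.75 and 0.21). In H2O2_embryo it read 6018 on replicate 1 and 13422 and 12403 on the others, and without replicate 1 both ABA differences passed (adjusted p = 0.0052 and 9.6e-06).

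**Figure D1:**
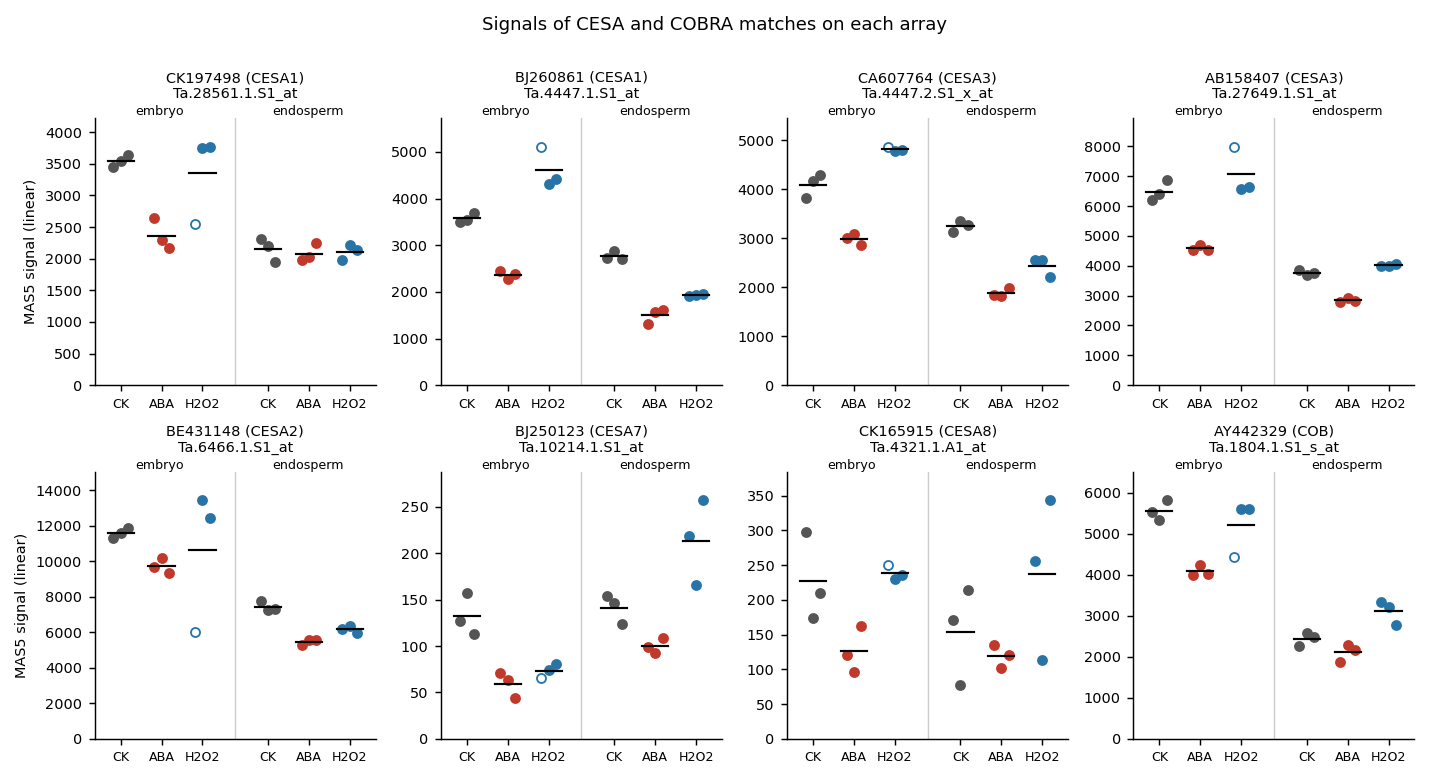
Linear MAS5 signal (y axis) of 7 CESA matches and the COB match AY442329 in the 6 groups (x axis), with a point for each array, a bar for the group mean and an open point for H2O2_embryo replicate 1. ABA arrays lie below CK arrays in embryo in all 8 panels, while with H2O2 the CESA1 match BJ260861 reads 4302 to 5111 in embryo and 1911 to 1947 in endosperm.

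Of the secondary-wall CESA matches, 1 of 9 was called with ABA in embryo and 0 in endosperm, where also 0 had an unadjusted p under 0.05 by limma. BJ250123, a CESA7 match, read 126.9, 156.7 and 113.4 in CK_embryo and 70.7, 63.8 and 43.8 in ABA_embryo, a log2 difference of −1.17 ± 0.34 (adjusted p = 0.045). Leaving out an array in turn lost this call in 14 of 18 refits, with adjusted p up to 0.216, and 75th percentile scaling also ended it, so it stood close to the threshold. CK165915, a CESA8 match highly similar to its counterpart, read 298.5, 173.3 and 210.5 in CK_embryo and 120.1, 96.4 and 162.0 in ABA_embryo. Its ABA arrays lay below its CK arrays in embryo, but the log2 difference of −0.85 ± 0.40 did not pass (adjusted p = 0.37), and in endosperm the groups overlapped (171.8, 77.8 and 213.9 in CK, 135.5, 101.9 and 120.2 with ABA). Without H2O2_embryo replicate 1, CA626078, a CESA4 match, was also called lower in embryo (−1.77, adjusted p = 0.032).

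Among the CSL matches ABA called 2 of 17 tested lower in embryo and 5 of 17 in endosperm, and 0 higher, beside 3.08% and 3.6% of all probe sets lower. The counts were 3 and 8 without H2O2_embryo replicate 1. CD937007, a CSLA2 match, gave the largest embryo difference of the members brighter than 1000. It read 4019, 4478 and 3983 in CK_embryo and 1904, 2046 and 1952 in ABA_embryo, 0.473 times the CK level (log2 difference −1.08 ± 0.13, adjusted p = 9e-06). In endosperm it read 2350, 2715 and 2026 in CK and 1408, 1751 and 1412 with ABA (−0.63 ± 0.13, adjusted p = 0.0041). No array overlapped between CK and ABA in either tissue. BE515912, a CSLA11 match, read 2277, 1902 and 1806 in CK_endosperm and 1091, 1526 and 1477 in ABA_endosperm (−0.56 ± 0.14, adjusted p = 0.021), and its embryo difference of −0.23 ± 0.14 did not pass (3121, 3339 and 3317 in CK, 2770, 2688 and 2880 with ABA). Its endosperm call was lost without CK_endosperm replicate 1 or ABA_endosperm replicate 1, with adjusted p up to 0.139, and with 75th percentile scaling. Leaving out limma's variance trend ended that call as well.

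Of the 4 CSLC matches, whose Arabidopsis counterparts make the xyloglucan backbone, 2 fell in ABA-treated endosperm. CK208409, a CSLC12 match highly similar to its counterpart, read 2775, 2459 and 2711 in CK_endosperm and 847.5, 877.9 and 849.1 in ABA_endosperm. That is 0.324 times the CK level, with a log2 difference of −1.62 ± 0.11 (adjusted p = 3.3e-09). In embryo it read 2443, 2594 and 2665 in CK and 2211, 2317 and 2135 with ABA, a log2 difference of −0.21 ± 0.11 that did not pass (adjusted p = 0.44). CD452591, a CSLC8 match, read 764.1, 715.8 and 690.1 in CK_endosperm and 368.0, 269.8 and 325.9 in ABA_endosperm, and 1411, 1586 and 1459 in CK_embryo and 951.6, 955.0 and 900.1 in ABA_embryo. CK and ABA arrays were apart in both tissues, with log2 differences of −1.18 ± 0.14 (adjusted p = 9.5e-06) and −0.67 ± 0.14 (adjusted p = 0.0043). The other 2 CSLC12 matches, CD867104 and CA629645, had endosperm differences of −0.71 and −1.26 that passed without H2O2_embryo replicate 1 (adjusted p = 0.002 and 4e-05) and not with it (0.15 and 0.088). On that array they read 1343 and 1499 against 467.0 to 520.1 and 262.4 to 279.8 on the other 2 replicates.

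BJ219357, a CSLD2 match, read 2162, 2011 and 1865 in CK_endosperm and 713.5, 628.1 and 792.5 in ABA_endosperm. It fell by 1.5 ± 0.21 on the log2 scale (adjusted p = 7.4e-05), to 0.352 times the CK level. In embryo, where it read 2609, 2567 and 2607 in CK and 1829, 1906 and 1557 with ABA, the difference of −0.56 ± 0.21 passed without H2O2_embryo replicate 1 (adjusted p = 0.00018) and not with it (0.18). The second CSLD2 match, CK194966, highly similar to its counterpart, differed by −0.15 ± 0.12 in embryo and −0.38 ± 0.12 in endosperm (adjusted p = 0.77 and 0.063), the latter called without H2O2_embryo replicate 1 (adjusted p = 0.0033). The CSLE1 matches and the CSLB5 match were not called with ABA in either tissue.

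Outside these families ABA moved few members. AY442329, highly similar to COB, the gene that gave the COBRA family its name, read 5519, 5328 and 5810 in CK_embryo and 3993, 4224 and 4013 in ABA_embryo (−0.45 ± 0.12, adjusted p = 0.029). Its call was lost without any 1 of the 6 arrays of these 2 groups, with adjusted p up to 0.14, and with 75th percentile scaling (adjusted p = 0.145). Leaving out limma's variance trend also ended it (adjusted p = 0.178). The other 11 COBRA family members were not called with ABA in either tissue. Of these, the COBL4 match CA629775 read 33.1, 23.8 and 5.27 in CK_endosperm and 153.2, 85.2 and 90.0 in ABA_endosperm, with no overlap, and was called higher without H2O2_embryo replicate 1 (2.41, adjusted p = 0.023). CA688207, a very weak match to MUR3, was the only member called higher with all arrays. It read 527.9, 461.8 and 344.9 in CK_endosperm and 846.8, 991.7 and 987.1 in ABA_endosperm, 2.14 times the CK level (1.10 ± 0.24, adjusted p = 0.0053). In embryo it read 495.2, 409.2 and 467.0 in CK and 741.1, 718.0 and 701.2 with ABA, also apart, but the difference of 0.66 ± 0.24 passed only without H2O2_embryo replicate 1 (adjusted p = 0.0027 against 0.14). Fucosyltransferase and endo-glucanase matches gave 0 calls with ABA by limma. At an unadjusted p under 0.05 there were 2 fucosyltransferases in embryo and 3 in endosperm, and 0 endo-glucanases. On its ordinary probe set the FT1 match CA641288 read 610.3, 767.1 and 547.1 in CK_endosperm and 487.8, 478.4 and 367.6 in ABA_endosperm, without overlap. It passed without H2O2_embryo replicate 1 (−0.53, adjusted p = 0.0097 against 0.054). In these whole dissected tissues fewer cells of a type and less RNA per cell cannot be told apart, and in endosperm the summed starchy endosperm markers stood at 1405 to 1643 with ABA against 496.0 to 655.1 in CK. The part of either in the falls was not tested.

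**Figure D2:**
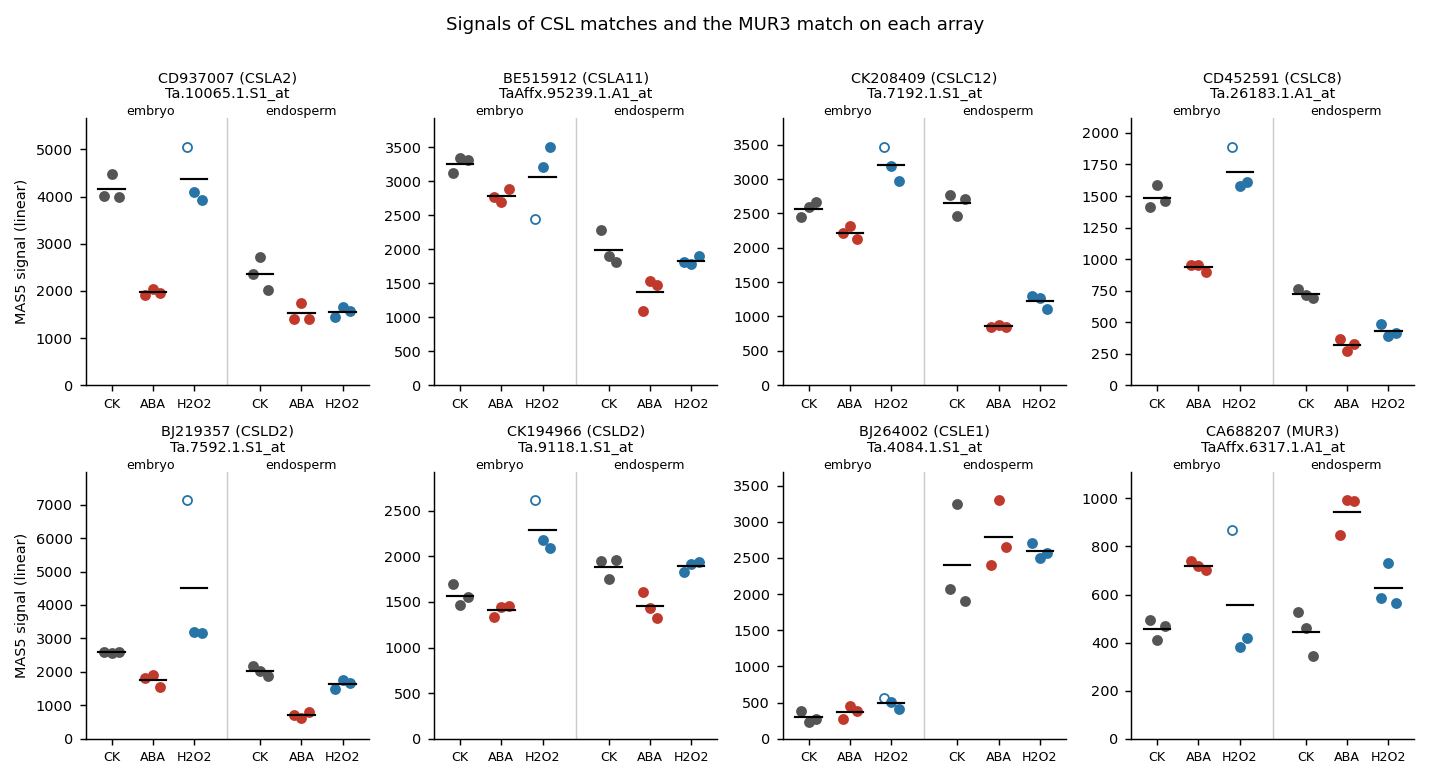
Linear MAS5 signal (y axis) of 7 CSL matches and the MUR3 match in the 6 groups (x axis), with a point for each array, a bar for the group mean and an open point for H2O2_embryo replicate 1. The CSLC12 match CK208409 reads 847.5 to 877.9 in ABA_endosperm against 2459 to 2775 in CK_endosperm, and the CSLE1 match BJ264002 is higher in endosperm under every treatment.

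More members passed the test with H2O2 in endosperm than in embryo. In embryo 1 of 65 members rose and 0 fell, at a background of 0.531% (0.188% higher, 0.343% lower), with 11 members at an unadjusted p under 0.05. In endosperm 1 rose and 6 fell, at a background of 5.46% (3.08% higher, 2.38% lower), with 13 at an unadjusted p under 0.05. The tissues differed in calls and little in that last count, but it was not made over all probe sets. It therefore does not show whether the tissues differ in response. The counts without H2O2_embryo replicate 1 were 2 higher in embryo, at 1.36%, and 3 higher and 9 lower in endosperm, at 13.8%. The endosperm and embryo contrasts each use their own CK arrays, but within a tissue H2O2 and ABA were compared with the same CK arrays, so values below the CK level in both can share that source. The median log2 difference of the 65 members was 0.21 in embryo, beside 0.12 over all probe sets, and −0.06 in endosperm, beside 0.00. Without H2O2_embryo replicate 1 the embryo medians were 0.04 and −0.01.

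The members that fell with H2O2 in endosperm were BJ260861 (both probe sets), CA607764, CD937007, CK208409 and CD452591. BJ260861 read 1911, 1936 and 1947 in H2O2_endosperm on its ordinary probe set (−0.52 ± 0.11, adjusted p = 0.0052) and 2581, 2056 and 2222 on its x_at probe set (−0.50 ± 0.11, adjusted p = 0.011), and CA607764 read 2555, 2560 and 2206 against 3134, 3358 and 3272 (−0.42 ± 0.10, adjusted p = 0.016). CK208409, the CSLC12 match, read 1297, 1264 and 1103, or 0.461 times the CK level (−1.12 ± 0.11, adjusted p = 2.2e-06). CD452591, the CSLC8 match, read 483.1, 391.9 and 417.2 (−0.75 ± 0.14, adjusted p = 0.0023), and CD937007, the CSLA2 match, read 1451, 1656 and 1572 (−0.59 ± 0.13, adjusted p = 0.0094). All H2O2_endosperm arrays of these members lay below all CK_endosperm arrays. Single arrays ended the calls of the x_at probe set of BJ260861 (without CK_endosperm replicate 1 or H2O2_endosperm replicate 2), of CA607764 (without CK_endosperm replicate 2, CK_endosperm replicate 3 or H2O2_endosperm replicate 3) and of CD937007 (without CK_endosperm replicate 2 or H2O2_endosperm replicate 1), with adjusted p up to 0.0727, 0.0993 and 0.0643. Without limma's variance trend these calls and that of the ordinary probe set of BJ260861 were lost, with adjusted p of 0.0613 to 0.117. The starchy endosperm markers summed to 939.9 to 1463 in H2O2_endosperm, above CK_endosperm, and 0 of these 3 were called. The embryo markers, which did not separate the tissues in CK, were below CK_endosperm on every array. Of the 7, 3 were called lower, 6 without H2O2_embryo replicate 1, with a median log2 difference of −0.66. The part of either list in these differences was not tested.

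For AB158407, the CESA3 match, no difference passed. With H2O2 it read 4006, 3976 and 4068 in endosperm and 7987, 6566 and 6630 in embryo, with log2 differences of 0.09 ± 0.10 and 0.12 ± 0.10 from CK (adjusted p = 0.72 and 0.63). The 1 member that rose in endosperm, BJ303140, a moderate CESA1 match, was dim. It read 6.66, 61.9 and 8.58 in CK_endosperm and 98.3, 102.1 and 162.2 in H2O2_endosperm, so that the difference of 2.68 ± 0.74 (adjusted p = 0.038) rests on 2 CK arrays below the floor of 10. Its call was lost in 7 of 18 refits without an array, with adjusted p up to 0.148. Members that passed only without H2O2_embryo replicate 1 included the COB match AY442329, which read 3341, 3220 and 2774 in H2O2_endosperm, above all CK_endosperm arrays (0.35, adjusted p = 0.0051 against 0.10), and the MUR3 match CA688207, which read 584.4, 732.0 and 563.9, also above them (0.51, adjusted p = 0.021 against 0.27). The CESA2 match BE431148 read 6190, 6336 and 5950 and passed in the other direction (−0.27, adjusted p = 0.0031 against 0.53).

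In embryo the 1 member called was CK194966, the CSLD2 match. It read 1693, 1463 and 1554 in CK_embryo and 2614, 2175 and 2088 in H2O2_embryo, with no overlap, 1.46 times the CK level (0.54 ± 0.12, adjusted p = 0.042). Without H2O2_embryo replicate 1 the difference was 0.44 (adjusted p = 0.019), while leaving out other arrays lost the call in 14 of 18 refits, with adjusted p up to 0.212. BJ260861 read 5111, 4302 and 4411 in H2O2_embryo, above all CK_embryo arrays (0.36 ± 0.11, adjusted p = 0.16), and its x_at probe set, at 6778, 5391 and 5555, was called higher without replicate 1 (0.35, adjusted p = 0.047). CA607764 read 4868, 4784 and 4804, also above all CK_embryo arrays (0.24 ± 0.10, adjusted p = 0.30). BJ219357, the other CSLD2 match, read 7129 on replicate 1 and 3202 and 3174 on the others, and its difference of 0.68 ± 0.21 (adjusted p = 0.18) shrank to 0.30 without that array.

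**Figure D3:**
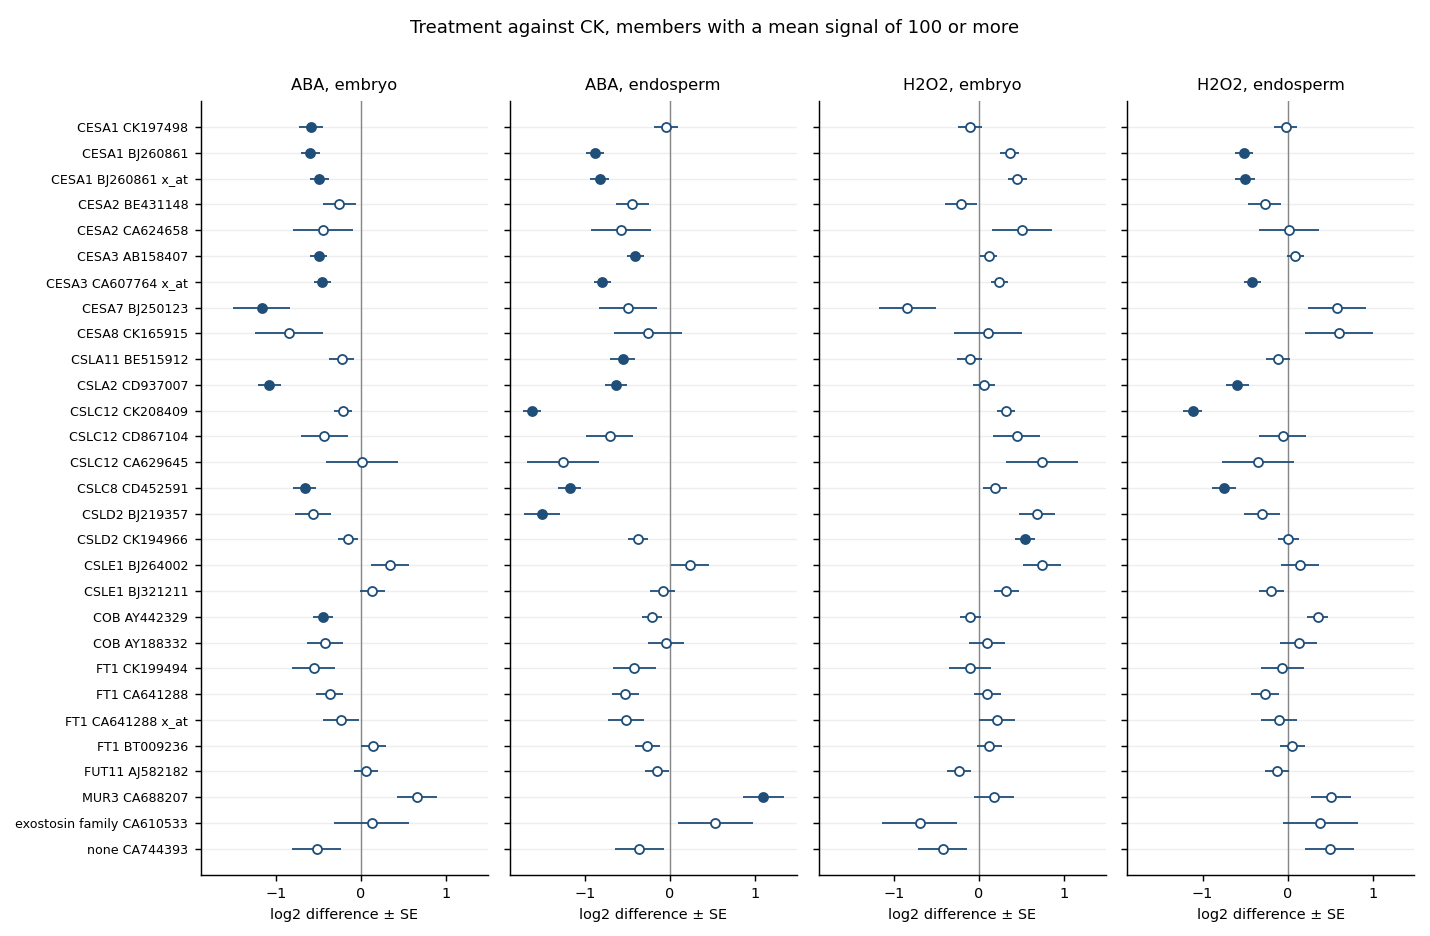
Log2 difference from CK (x axis, bars ± SE) of the 29 members whose mean signal over the 18 arrays was 100 or more (y axis, by match and accession), for ABA and H2O2 in each tissue. Filled points passed an adjusted p of 0.05: with ABA the CESA, CSLA and CSLC matches lie mostly left of 0 in both tissues, with H2O2 mainly in endosperm.

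The responses of 5 probe sets to H2O2 and of 1 to ABA differed between the tissues, tested as the difference of the embryo and endosperm effects. The background was 3.63% of probe sets for H2O2 (1.51% with the embryo effect above the endosperm effect, 2.12% below it) and 2.64% for ABA (1.36% above, 1.28% below). In all 6 results the embryo effect was the higher. For H2O2 these were both probe sets of BJ260861 (0.88 ± 0.15 and 0.95 ± 0.16 on the log2 scale, adjusted p = 0.0017 and 0.0014), CA607764 (0.66 ± 0.14, adjusted p = 0.011), CK208409 (1.44 ± 0.15, adjusted p = 1.2e-05) and CD452591 (0.94 ± 0.20, adjusted p = 0.0095). CK208409 read 3471, 3188 and 2972 in H2O2_embryo, above all CK_embryo arrays, and below CK in endosperm. It was also the member whose ABA response differed (1.41 ± 0.15, adjusted p = 5.5e-06). All 6 kept their calls without H2O2_embryo replicate 1, when 9 and 4 members in all were called higher for H2O2 and ABA and 1 and 2 lower, at backgrounds of 8.72% and 8.94%. The H2O2 result of CA607764 was lost without the variance trend and in a fit of only the arrays compared (adjusted p = 0.107 and 0.054), and that of CD452591 without the trend (adjusted p = 0.0528).

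**Figure D4:**
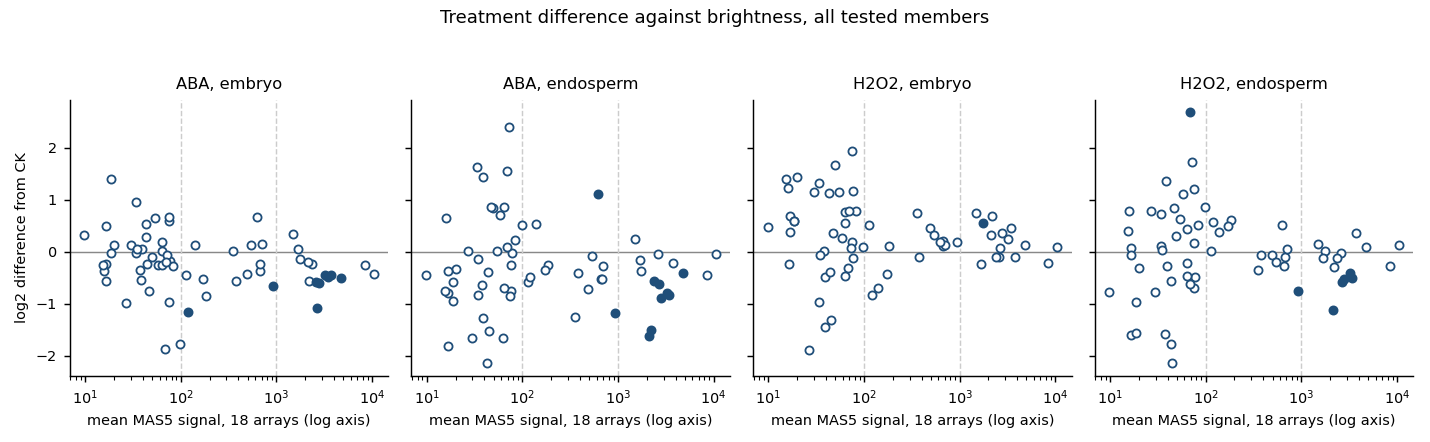
Log2 difference from CK (y axis) against the mean signal over 18 arrays (x axis, log scale) for the 65 tested members in the 4 treatment comparisons, with filled points at an adjusted p under 0.05 and dashed lines at 100 and 1000. The differences of dim members scatter widely on both sides of 0, while the filled points below 0 lie at or above 100. Of the 36 dim members 1 was called in any panel, beside 0.0352% to 1.01% of all probe sets as dim in each panel.

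Between the tissues, the 6 bright primary-wall CESA probe sets were higher in embryo in CK, but 4 of the 6 calls were lost when arrays were scaled to the 75th percentile. These 4 were both probe sets of BJ260861 (adjusted p = 0.276 and 0.192), CA607764 (0.478) and BE431148 (0.204), while AB158407 and CK197498 passed. The same 4 calls were lost without limma's variance trend. In CK 14 of 65 members were higher in embryo and 3 in endosperm, at a background of 18.2% of probe sets called (11.2% higher in embryo, 6.96% in endosperm), and 10 of the 14 were among the 15 members at 1000 or more, where 23.5% of all probe sets were higher in embryo. With ABA 12 were higher in embryo and 2 in endosperm (background 16.1%, split 9.7% and 6.39%), and with H2O2 16 and 2 (22.7%, split 13.1% and 9.62%). Without H2O2_embryo replicate 1 the counts were 16 and 5, 17 and 3, and 14 and 4, at backgrounds of 26.8%, 24.1% and 25.7%. Over the 3 treatments 19 members were called higher in embryo at least once and 8 each time, 5 were called higher in endosperm at least once and 1 each time, and 0 changed direction. Such overlaps were not counted over all probe sets. The split in CK moved to 7 and 5, and that with ABA to 9 and 3, with that scaling, which shifted the median of all probe sets in CK from −0.01 to −0.18.

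CESA3 match AB158407 was 1.72 times as high in CK_embryo as in CK_endosperm (0.78 ± 0.10, adjusted p = 7.7e-06), CESA1 match CK197498 1.65 times (0.73 ± 0.14, adjusted p = 0.00061) and CESA2 match BE431148 1.56 times (0.64 ± 0.19, adjusted p = 0.023). Of these, BE431148 lost its call without any 1 of 5 CK arrays (all but CK_endosperm replicate 1), with adjusted p up to 0.0732. COB match AY442329 had the largest difference toward embryo of the bright members, with 2253, 2581 and 2469 in CK_endosperm against 5328 to 5810 in CK_embryo (1.19 ± 0.12, adjusted p = 3.5e-07). AY188332, another COB match, read 12557, 15401 and 14333 in CK_embryo and 6821, 6604 and 8739 in CK_endosperm (0.94 ± 0.21, adjusted p = 0.0031). A second probe set of the same accession stayed between 2.44 and 68.3 on all 18 arrays and correlated with it at r = 0.104, so the accession's call rests on 1 of its 2 probe sets.

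The CSLC matches differed from each other. CSLC8 match CD452591 was higher in embryo throughout, 2.05 times in CK, 2.93 times with ABA and 3.93 times with H2O2 (adjusted p = 1.6e-05, 8e-08 and 1.3e-09). CSLC12 match CK208409 was level in CK (−0.04 ± 0.11, adjusted p = 0.86) and 2.59 and 2.63 times as high in embryo with ABA and H2O2 (adjusted p = 1e-08 and 4.4e-09). The tested difference of these effects is given above. For CSLA2 match CD937007 the embryo stood 1.77 times above the endosperm in CK, 2.79 times with H2O2 (adjusted p = 0.0001 and 3.8e-08) and 1.30 times with ABA (adjusted p = 0.06).

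The reverse pattern belonged to CSLE1 match BJ264002, which read 385.7, 231.4 and 275.0 in CK_embryo and 2067, 3250 and 1909 in CK_endosperm. It was the only member higher in endosperm under every treatment, with log2 differences of −3.01 ± 0.22 in CK, −2.91 ± 0.22 with ABA and −2.41 ± 0.22 with H2O2 (adjusted p = 3.8e-09, 6.9e-09 and 5.9e-08), and no embryo array reached any endosperm array. Its own response to either treatment was not called in either tissue. Another CSLE1 match, BJ321211, read 482.9 to 559.8 in CK_embryo and 525.8 to 574.6 in CK_endosperm (−0.10 ± 0.15, adjusted p = 0.74). With H2O2 it was called higher in embryo (723.8, 588.3 and 603.2 against 491.7, 463.7 and 473.6, 0.42 ± 0.15, adjusted p = 0.046), a call lost in 16 of 18 refits without an array, with adjusted p up to 0.111. On its ordinary probe set the FT1 match CA641288 was higher in embryo with ABA (613.5 to 705.3 against 367.6 to 487.8, adjusted p = 0.02) and with H2O2 (808.0 to 983.7 against 486.2 to 585.4, adjusted p = 0.0012). Its x_at probe set was called with H2O2 and not with ABA, and that H2O2 call was lost in 5 of 18 refits without an array (adjusted p up to 0.174). CA744393, with no named match, was higher in embryo in CK (235.4 to 269.5 against 113.3 to 140.1, adjusted p = 0.016). The ABA call of CA641288 was lost without ABA_embryo replicate 3 or ABA_endosperm replicate 3 (adjusted p up to 0.128), and that of CA744393 in CK without CK_embryo replicate 1, CK_embryo replicate 2 or CK_endosperm replicate 1 (up to 0.0636).

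A further pair of matches were higher in CK_endosperm, both dim. COBL1 match CD890594 read 7.52, 4.51 and 30.5 in CK_embryo and 89.1, 148.8 and 129.7 in CK_endosperm (−3.05 ± 0.84, adjusted p = 0.013), and on H2O2_embryo replicate 1 it read 140.1 against 2.36 and 10.8 on the other replicates. CESA3 match CA627309 read 9.11, 16.1 and 2.55 in CK_embryo and 66.4, 33.2 and 39.7 in CK_endosperm (−1.92 ± 0.60, adjusted p = 0.028). Of the members higher in embryo, the dim BJ303140 read 62.3, 99.0 and 110.2 in CK_embryo against 6.66, 61.9 and 8.58 in CK_endosperm (2.26 ± 0.74, adjusted p = 0.038) and CA610533, of the exostosin family of glycosyltransferases and with a mean of 139.3, read 190.6, 202.8 and 184.2 against 89.7, 91.2 and 53.4 (1.34 ± 0.44, adjusted p = 0.039). No array overlapped in these 4 comparisons, but leaving out single CK arrays lost each of the 4 calls, in 2, 4, 5 and 8 of 18 refits in the order named, and for CA610533 also ABA_embryo replicates 2 and 3, with adjusted p up to 0.0604, 0.109, 0.151 and 0.152. Secondary-wall CESA matches were higher in endosperm in 2 cases, CA626078 (CESA4) with ABA (18.8, 26.3 and 37.6 in embryo, 72.1, 145.4 and 149.1 in endosperm, adjusted p = 0.0087) and BJ250123 (CESA7) with H2O2 (65.5, 74.1 and 80.7 in embryo, 218.2, 165.5 and 257.1 in endosperm, adjusted p = 0.002).

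**Figure D5:**
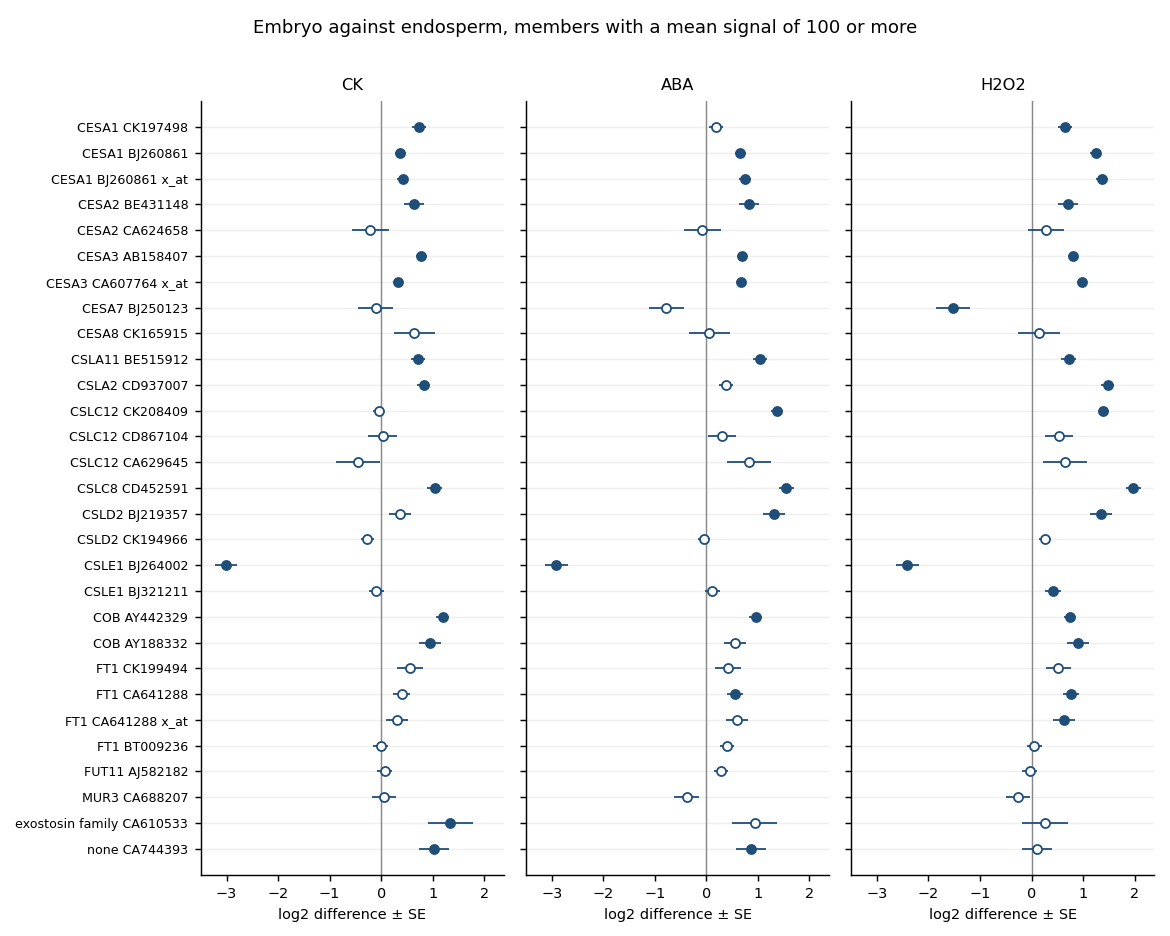
Log2 difference of embryo from endosperm (x axis, bars ± SE) of the 29 members with a mean signal of 100 or more (y axis, by match and accession) in CK, ABA and H2O2. Filled points passed an adjusted p of 0.05: the bright CESA1, CESA2, CESA3 and COB matches lie right of 0, and the CSLE1 match BJ264002 lies at −3.01, −2.91 and −2.41.

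Over the 6 groups together, 25 of 65 members differed by limma's moderated F test, against 32.1% of all probe sets, 9 of 21 CESA, 8 of 17 CSL and 8 of the others. The count was 28 without H2O2_embryo replicate 1, against 39%. Of the 25, 18 had their lowest group mean in ABA_endosperm, 6 of the 9 CESA and 6 of the 8 CSL matches among them, and 5 had it in ABA_embryo. The highest mean was in H2O2_embryo for 13, in CK_embryo for 6, in H2O2_endosperm for 3, in ABA_endosperm for 2 and in CK_endosperm for 1, and in H2O2_embryo for 14 without its replicate 1. The highest and lowest groups were not counted over all probe sets. These counts therefore have no background and do not show a trait particular to the members. For BJ260861, on its ordinary probe set, the order from the highest was H2O2_embryo, CK_embryo, CK_endosperm, ABA_embryo, H2O2_endosperm and ABA_endosperm, with no overlap between neighbours. Its x_at probe set had the same order of means, but CK_endosperm (3039 to 3444) and ABA_embryo (2996 to 3144) overlapped. For CK208409 the order was H2O2_embryo, CK_endosperm, CK_embryo, ABA_embryo, H2O2_endosperm and ABA_endosperm, and CK_endosperm and CK_embryo overlapped.

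Neighbouring steps of wall metabolism were counted the same way. Each count with all arrays is set beside the share of all probe sets called in that direction. Of 77 probe sets for precursor synthesis, the enzymes that make nucleotide sugars, ABA raised 2 and lowered 11 in embryo (background 2.66% and 3.08%) and raised 7 and lowered 12 in endosperm (3.26% and 3.6%). H2O2 changed 0 of the 77 in embryo (19 at an unadjusted p under 0.05 by limma) and raised 10 and lowered 6 in endosperm (3.08% and 2.38%). In CK 29 of the 77 were higher in embryo and 6 in endosperm (11.2% and 6.96%). These counts moved without H2O2_embryo replicate 1, to 2 raised and 26 lowered with ABA in embryo and 11 and 20 with ABA in endosperm. They moved to 17 and 10 with H2O2 in endosperm, and to 39 and 6 in CK. The share of all probe sets called in either direction moved too, to 12%, 15.6%, 13.8% and 26.8% in that order. Of 19 probe sets for cellulases and other beta-glucanases, enzymes that cut glucan chains, ABA lowered 5 and raised 0 in embryo and lowered 1 and raised 1 in endosperm, and H2O2 lowered 1 in embryo (0.343%) and raised 1 in endosperm. The cellulase counts without that array were 7 lowered and 1 raised, 3 and 1, 1 lowered, and 5 raised, in the same order. The shares of all probe sets called in either direction were then 12%, 15.6%, 1.36% and 13.8%. The median ABA difference of the cellulases was −0.44 in embryo and −0.05 in endosperm, and that of the precursor genes −0.35 and −0.21.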

How the data were processed

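RNA of 18 samples was hybridised to 1 Affymetrix array each. The deposited table holds linear signal intensities that the authors made with MAS5, scaled per array, without detection calls. The authors' fold columns were not used. The 111 control probe sets were left out, and a floor of 10 was applied to the signals before taking log2. A probe set was tested if it reached 20 on at least 3 arrays (57992 of 61179). limma 3.58.1 under R 4.3.3 fitted 6 group means with eBayes and a mean-variance trend, 12 residual degrees of freedom, and contrasts of treatment against CK in each tissue, their difference, and embryo against endosperm. The fitting step was tested on simulated data. Folds are back-transformed log2 differences, which the floor makes too small for dim members. Arrays give no counts of molecules, and 3 per group limit the precision. 0 pairs of arrays held identical values.

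Values on the arrays compared are given for members called in a treatment contrast or in the difference between tissues with a group mean of 100 or more, for CESA matches called nearly identical or highly similar, and for the 3 members with the largest tissue difference in CK in each direction. Members, classes and lists were chosen with earlier results of these data known. Marker lists come from gene names in the platform annotation and the study's supplementary list of changed genes. The study's own test, significance analysis of microarrays, permutes sample labels and was not repeated. Alternatives were another floor, another filter, quantile and 75th percentile scaling, no trend, only the arrays compared, a replicate block and each array left out. No sequence of a member was available in the references used here.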

Additional observations from a re-analysis of the deposited data

Results flagged for a closer look

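For 6 results the embryo and endosperm responses to the same treatment differed by a test of the difference itself (limma, adjusted p under 0.05), each with the embryo effect higher. Of the 65 tested members 7.69% were called for H2O2 and 1.54% for ABA, beside 3.63% and 2.64% of all probe sets. For ABA this was the CSLC12 match CK208409, with a difference of 1.41 on the log2 scale between effects of −0.21 in embryo and −1.62 in endosperm. For H2O2 it was CK208409 with 1.44 (0.32 and −1.12), the CSLC8 match CD452591 with 0.94 (0.19 and −0.75), the CESA1 match BJ260861 with 0.88 on its ordinary probe set (0.36 and −0.52) and 0.95 on its x_at probe set (0.45 and −0.50), and the CESA3 match CA607764 of the same transcript cluster with 0.66 (0.24 and −0.42). H2O2_embryo replicate 1, the array with the high median signal, enters the H2O2 values. Without it the differences were 1.38, 0.86, 0.80, 0.85 and 0.65 in the order named, and all 5 still passed. Without the variance trend the results of CA607764 and CD452591 were lost (adjusted p = 0.107 and 0.0528), and that of CA607764 also in a fit of only the arrays compared (0.054). Its part in the other members' differences was not tested beyond that refit.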

How the results depend on the processing

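Of 82 called results of single members, 0 changed sign under any alternative. The most calls were lost without the variance trend (22) and with 75th percentile scaling (17), and 7 with quantile normalization, 9 with only the arrays compared, 1 with a floor of 1 and 0 without the filter. Counts of called members moved beyond 1.5 times as follows, and the cause was not tested. For ABA in embryo (9) no trend gave 4 and only the arrays compared 18, and for ABA in endosperm (10) only the arrays compared gave 16. For H2O2 in embryo (1) a floor and filter of 100 gave 2, and no trend and only the arrays compared each gave 0. For H2O2 in endosperm (7) no trend gave 2. For the tissue difference of the ABA effect (1) only the arrays compared gave 7, and for that of the H2O2 effect (5) a floor and filter of 100 gave 9.

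The replicate number as a block gave 8 calls for ABA in embryo, 10 for ABA in endosperm and 0 for H2O2 in embryo, where it ended the CK194966 call. The samples share only a number: of 45 same-numbered pairs of arrays from different groups, 0 had deviations from the group means correlated above 0.1 (r = −0.037 to 0.074), and 7 of 18 arrays matched best an array of the same number.

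Leaving out each array in turn gave 4 to 13 calls for ABA in embryo, 8 to 17 for ABA in endosperm, 0 to 3 for H2O2 in embryo, 5 to 12 for H2O2 in endosperm, 1 to 6 and 5 to 10 for the tissue differences of the ABA and H2O2 effects, 10 to 21, 13 to 20 and 16 to 18 for embryo against endosperm in CK, ABA and H2O2, and 22 to 29 over the 6 groups. The highest count came without H2O2_embryo replicate 1 in 8 of these 10, tied in 1 of them, and the lowest for ABA in embryo and for the tissues in CK came without CK_embryo replicate 3. Dim members limit what could be seen: of the 36 members with a mean under 100, 3 passed over the 6 groups, beside 6.6% of all probe sets as dim.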

Other observations

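Several dim members read high on H2O2_embryo replicate 1 and nowhere else in that group. The CSLD3 match CA722045 read 546.6 there against 38.4 and 15.1 on the other 2 replicates and 7.46 to 30.3 on the 15 arrays of the other groups. The CESA7 match BJ225413 read 204.5 against 12.8 and 11.4, and the COBL4 match CA629775 read 272.7 against 68.9 and 10.4. Bright members went the other way in places, with the CESA2 match BE431148 at 6018 against 13422 and 12403 and the COB match AY188332 at 10118 against 19068 and 17447.

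Pairs of probe sets for 1 accession did not always read alike over the 18 arrays. The log2 signals correlated at r = 0.979 for BJ260861 (CESA1), 0.807 for CA641288 (FT1), 0.281 for CA712476 (GUN12), 0.104 for AY188332 (COB) and −0.225 for CA624007 (KOR1), the last 3 of which include a probe set with a mean under 100. The platform annotation pairs 2 CSLD members, BJ219357 (CSLD2) and CA722045 (CSLD3), with the same wheat gene. The second read 10.5 to 17.4 in CK_endosperm and at most 30.3 in ABA_endosperm, too near the floor of 10 to be set against the first.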
